A study of Neodesmus pupukensis with 4 samples.

Results

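A set of 78 assembled transcript sequences had a low point in the 45 h library of a microalgal culture and stood higher again at 57 h and 88 h. They are 78 of the 14905 sequences in the series and of the 11089 whose read count averaged 50 or more in the 4 libraries, and they come from 48 of 6216 components. A component is the group of sequences whose identifiers share everything before the seq number. The members were chosen by their measured levels, as RPKM, which is the read count per kilobase of sequence and scaled to the stated library total of reads. A member averaged at least 50 reads and had an RPKM at 45 h of at most 0.5 times that at 14 h. Its RPKM at 57 h and at 88 h each lay above 0.5 times that at 14 h, and at 57 h it stayed below 6 times the larger of the 14 h and 45 h values. The low point at 45 h and the return are therefore the choice itself, and all levels below are descriptions without a test.

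The material was the green microalga strain UTEX2341, given the species name Neodesmus pupukensis in the sample labels and Chlorella minutissima in the study's design text. Cells grew fed-batch in shaken flasks of 500 mL with 200 mL of medium at 25 °C and were collected at 14, 45, 57 and 88 h of culture, with 1 library of total RNA per time. Strain, growth protocol and the note on lipid yield are identical in the labels of all 4 times, and no treatment other than culture time separates them. How many flasks stand behind the 4 harvests was not given in the sources used here, so flask and time cannot be told apart. No difference has a replicate check, no p-value was computed, and every interval covers counting error only.

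As an algal culture ages, nutrients are drawn down, growth slows, and carbon is directed from new cells into storage compounds such as starch and triacylglycerol. RNA levels of many genes follow that passage in 1 direction, and a transcript that dips and comes back has another course. A library taken from a whole culture gives the average over all cells, so a smaller share of expressing cells and less RNA per cell cannot be told apart. The files pair no identifier with a gene name or function, so pathway lists could not be scored and no role is given to any member.

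The stated library totals ran from 11874560 to 12495251 reads. The reads counted on sequences came to 1.27 to 1.36 times those totals, and sequences of 1 component may share reads. The late libraries were also composed differently. The median log2 ratio over the 11089 sequences was -0.04 for 45 h against 14 h, but -0.79 for 57 h and -0.85 for 88 h against 14 h. A member that kept its RPKM between 14 h and 57 h thus stood above the typical sequence.

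The members as a set were lower at 45 h and near their first level afterwards, while the typical sequence kept its level at 45 h and was lower afterwards. Their median RPKM in time order was 17.5, 7.68, 16.7 and 14.8. Without 1 component of low level that supplies 18 members it was 27.7, 10.8, 21.7 and 23.5. Over the 11089 sequences the median RPKM was 19.6 at both early times and 9.90 and 9.87 at the late ones, so at 14 h the members lay below that median with the component and above it without. For 45 h against 14 h the members' median log2 ratio was -1.19 and the range -1.58 to -1.01, so the deepest dip was close to 3-fold and none was deeper. For 57 h against 45 h the median was 1.01 on the log2 scale, which is 1.77 above the median of all sequences. For 57 h against 14 h the members' median was -0.24, or 0.55 above that of all sequences, and for 88 h against 14 h it was -0.20, or 0.65 above. Under TMM scaling, which places the typical sequence near no change, the same 2 medians were 0.46 and 0.57, so whether the members ended below or above 14 h depended on the scale. Under TMM, median-of-ratios and sum-of-counts scaling all 78 members kept the dip at 45 h. These scalings hardly change the ratio of 45 h to 14 h, with members' medians of -1.19, -1.19 and -1.21. They are therefore no check of a dip set by the choice.

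**Figure D1:**
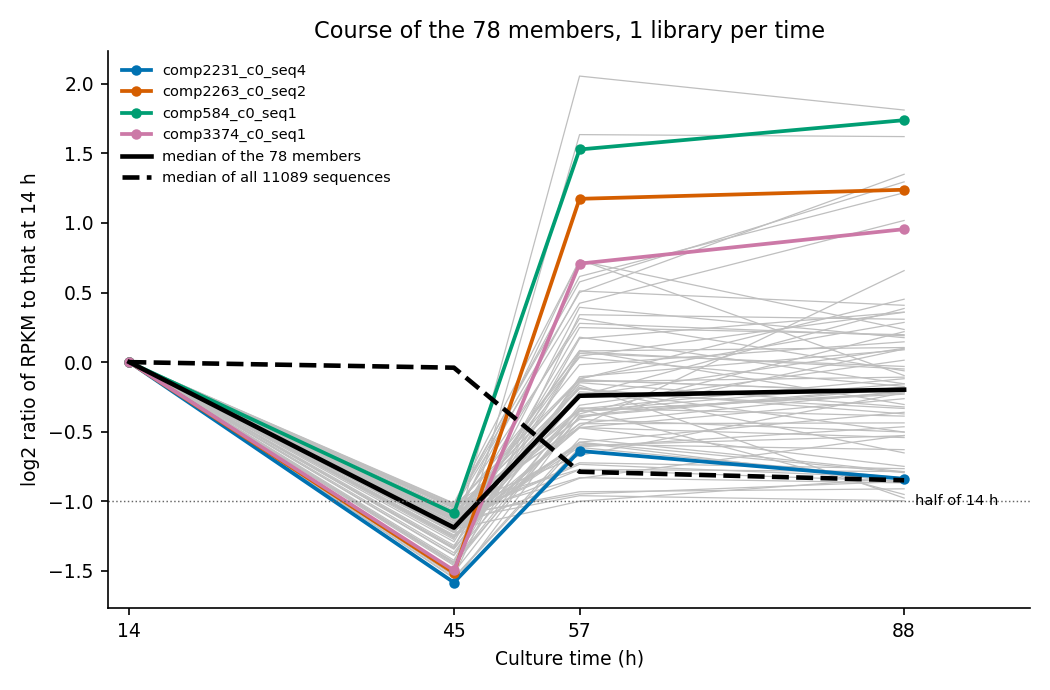
Log2 ratio of RPKM to that at 14 h (vertical axis) against culture time in hours for each of the 78 members (grey lines), the 4 sequences named by identifier (coloured), the members' median (solid black) and the median of all 11089 sequences over the read floor (dashed black). Each point is 1 library. The members' median is -1.19 at 45 h and -0.24 at 57 h, while that of all sequences is -0.04 and -0.79.

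The deepest dips among members with a mean of at least 100 reads, taking 1 sequence per component, were those of comp2231_c0_seq4 and comp2263_c0_seq2. The sequence comp2231_c0_seq4, of 1500 bases, had 962, 305, 600 and 520 reads in time order. These gave 51.3, 17.1, 33.0 and 28.7 RPKM, so on the deposited scale the late libraries stood between the 45 h and 14 h values. Under TMM scaling 57 h and 88 h differed from 14 h by 0.06 and -0.07 on the log2 scale. On the log2 scale 45 h differed from 14 h by -1.58 (95% counting interval -1.77 to -1.40), 57 h from 45 h by 0.95 (0.74 to 1.15) and 88 h from 14 h by -0.84. All 4 sequences of its component were members. At 45 h they held 296 to 305 reads each and at 57 h 600 to 604, and such near-equal counts on sequences of 1 component add little independent information.

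The sequence comp2263_c0_seq2, of 1158 bases, dipped by a like amount and then overshot. It had 427, 142, 935 and 974 reads at 14, 45, 57 and 88 h, or 29.5, 10.3, 66.6 and 69.6 RPKM. Both late values exceeded the 14 h value by more than counting error. The log2 ratio was -1.51 (-1.80 to -1.24) for 45 h against 14 h, 2.69 (2.43 to 2.95) for 57 h against 45 h and 1.24 (1.07 to 1.41) for 88 h against 14 h. The only other sequence of its component, of 1273 bases, was also a member, with an RPKM of 25.1, 8.8, 77.9 and 77.1 at the 4 times.

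The strongest returns from 45 h to 57 h among the remaining components, again with a mean of 100 reads or more, were those of comp584_c0_seq1 and comp3374_c0_seq1, each the only sequence of its component. The sequence comp584_c0_seq1, of 1900 bases, had 2878, 1288, 8058 and 9284 reads in time order, with an RPKM of 121, 57.1, 349.6 and 405. Its dip was shallow and its late level high. On the log2 scale 45 h differed from 14 h by -1.09 (-1.18 to -0.99), an interval that reaches past the limit of 0.5 times, and 57 h from 45 h by 2.61. At 88 h it was 3.34-fold above 14 h. The sequence comp3374_c0_seq1, of 748 bases, had 398, 134, 631 and 746 reads, or 42.6, 15.1, 69.5 and 82.6 RPKM. It combined a deep dip of -1.50 (-1.79 to -1.21) with a 4.61-fold return from 45 h to 57 h, a log2 interval of 1.93 to 2.48. It thus stood above 14 h at both late times, by less than 2-fold on the deposited scale and by 1.41 and 1.73 on the log2 scale under TMM.

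**Figure D2:**
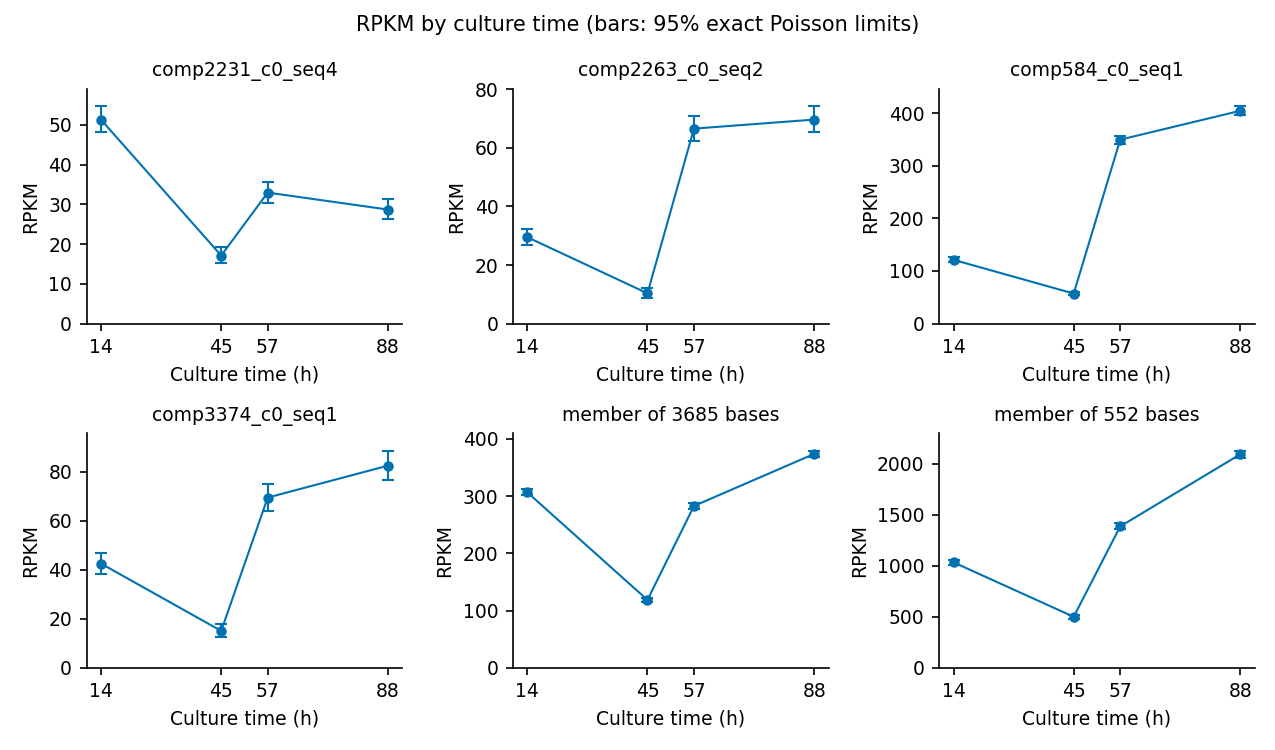
RPKM (vertical axis, starting at 0) against culture time in hours for the 4 named sequences and for the 2 members with the most reads, with exact 95% Poisson limits as bars and 1 library per point. The lowest value is at 45 h in all 6 panels, and comp584_c0_seq1 stands at 405 RPKM at 88 h, against 121 at 14 h, where comp2231_c0_seq4 stays at 28.7, against 51.3.

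Reads of the set were concentrated in a few abundant members. The member with the most reads, of 3685 bases, had 14120, 5190, 12641 and 16634 reads in time order, with an RPKM of 307, 119, 283 and 374. The highest RPKM of any member at 57 h and 88 h was that of a sequence of 552 bases, at 1034, 500.1, 1386 and 2093 RPKM in the order of time. The shortest member, of 374 bases, came next by reads after comp584_c0_seq1 and had the highest RPKM of any member at 14 h and 45 h, at 1298, 618, 1019 and 1166 RPKM. Of these 3, on the deposited scale, the sequence of 552 bases was the one that reached 2-fold above its 14 h level, at 2.02-fold at 88 h. Together with comp584_c0_seq1 these sequences held 45.8%, 45.6%, 53.3% and 58.2% of all reads on members in time order. All members together took 0.391%, 0.169%, 0.414% and 0.504% of counted reads. Without those 4, the members' share was 0.212%, 0.0920%, 0.193% and 0.211%. Summed, the other 74 members were thus back near their first share by 88 h. Singly they varied on the deposited scale, with 25 of the 74 above and 49 below their 14 h RPKM at 88 h, and of the abundant 4 the member of 374 bases was below. No share of all sequences was computed for that split. By counting interval 20.5% of all 78 members were higher and 43.6% lower at 88 h than at 14 h, against 24.7% and 64.7% of all sequences. Under TMM scaling these shares were 67.9% and 1.28%, against 41.6% and 45.4%, so the split depends on the scale.

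At the other end, 17 members had an RPKM under 1 at 14 h, and all 17 belong to 1 component, described below. Another 8 members, from 8 components, exceeded 100 RPKM at 14 h. A mean of fewer than 100 reads was found for 23 members, and 27 had under 50 reads at 45 h, where a few reads decide the ratio.

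The extent of the return differed among members. On the deposited scale 18 members from 12 components stood above 14 h at both late times, or 23.1% of the members, against 27.4% of all 11089 sequences. A further 43 stood below 14 h at both late times, 7 were above at 57 h alone and 10 at 88 h alone. For the 43, 7 and 10 no share of all sequences was computed. Under TMM scaling 61 members stood above and 8 below 14 h at both late times, again without a share of all sequences. A level at least 2-fold above 14 h was found for 4 members at 57 h, where the background was 13.6% of all sequences, and for 8 members at 88 h, where it was 13.3%. Under TMM and under median-of-ratios scaling these were 15 and 18 members. The shares of 27.4%, 13.6% and 13.3% belong to the deposited scale and do not apply to these counts. Over all sequences the median log2 ratio of 57 h to 14 h moved from -0.79 to -0.09 under TMM. Between 45 h and 57 h 40 members were at least 2-fold higher at 57 h, against 11.8% of all sequences, but every member is higher at 57 h by the way it was chosen. Under TMM these were 72 members, against 22.9% of all sequences. The 8 members at least 2-fold above 14 h at 88 h came from 6 components. They include both sequences of comp2263_c0, comp584_c0_seq1 and the member of 552 bases. They also include both sequences of a component with members of 3278 and 1962 bases, where the longer one had 1693, 781, 2518 and 3805 reads in time order. The others were a member of 890 bases, at 2.55-fold, and one of 510 bases, described below. The highest of the 4 values was at 14 h for 43 members, at 57 h for 15 and at 88 h for 20, and under TMM scaling these counts were 8, 29 and 41. No share of all sequences was computed for these counts either, and the choice bars 45 h as the highest. They are therefore not read as a trait of the members.

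Between the late libraries members moved both ways around a median near 0. For 88 h against 57 h the median log2 ratio was -0.02, with a sign that changed under other scalings, and for 48 of 78 members the counting interval held no change. For 17 members, or 21.8%, the whole interval lay above no change and for 13, or 16.7%, it lay below. Over all sequences these shares were 15.6% and 26.0%, and the interval held no change in 58.4%. Single log2 ratios ran from -0.83 to 1.12. At least 2-fold higher at 88 h was 1 member, against a background of 1.62%, and 0 were at most 0.5 times the 57 h level, against 0.325%. That member, of 661 bases, had 61, 25, 43 and 93 reads in time order.

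Counting error is wide beside the limit for most dips. The ratios were chosen to be at most 0.5, so their intervals describe reads and are no test of the dip. The whole 95% counting interval of the ratio of 45 h to 14 h lay below 1 for all 78 members, and below 0.5 for 14 members from 10 components. Those 14 include comp2231_c0_seq4, comp2263_c0_seq2, comp3374_c0_seq1 and the member of 3685 bases, but not comp584_c0_seq1 or the member of 552 bases. For all 14 the late intervals also lay wholly above 0.5 times 14 h. For the return, the interval of 57 h to 45 h lay wholly above 1 in 69 members and wholly above 2 in 18. Over all sequences it lay wholly above 1 in 24.2%, and the share wholly above 2 was not computed. The choice already sets 57 h above 45 h for every member. Relative to 14 h, the 57 h level was higher beyond counting error for 13 members, lower for 35 and not told apart for 30, or 16.7%, 44.9% and 38.5%. Over all 11089 sequences, which hold more reads, these shares were 25.9%, 63.6% and 10.5%. Under TMM the members' counts were 48, 4 and 26, or 61.5%, 5.13% and 33.3%, against 40.8%, 45.6% and 13.6% of all sequences.

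A dip at 45 h was in most cases not followed by a return. Of all 11089 sequences, 600 or 5.41% had an RPKM at 45 h of at most 0.5 times that at 14 h. Of these 600, 505 from 336 components were at most 0.5 times 14 h at both late times, 10 exceeded that limit at 57 h alone and 4 at 88 h alone. The remaining 81, or 13.5%, exceeded it at both, which 51.5% of all 11089 sequences did. The 78 members are those 81 less 3 sequences that passed the 6-fold limit. Of the 3, a pair shares a component and had 17 reads at 14 h, 8 at 45 h and over 400 at 57 h, and the other had 115, 54, 1845 and 2444 reads in the order of time.

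The 505 sequences that stayed low are set apart from the members by their late levels, which is how they were sorted. Between 45 h and 14 h their median difference was -1.26 on the log2 scale, against -1.19 for the members given above, both set by the same limit. Their median RPKM in time order was 38.7, 15.1, 4.48 and 4.69. At 14 h this was above the members' median, with or without the component of 34 sequences. Late levels of the 600 sequences formed 1 continuous range, as the plot of late levels shows, with no gap at the limit of 0.5 times and with the 3 sequences past the 6-fold limit standing apart.

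**Figure D3:**
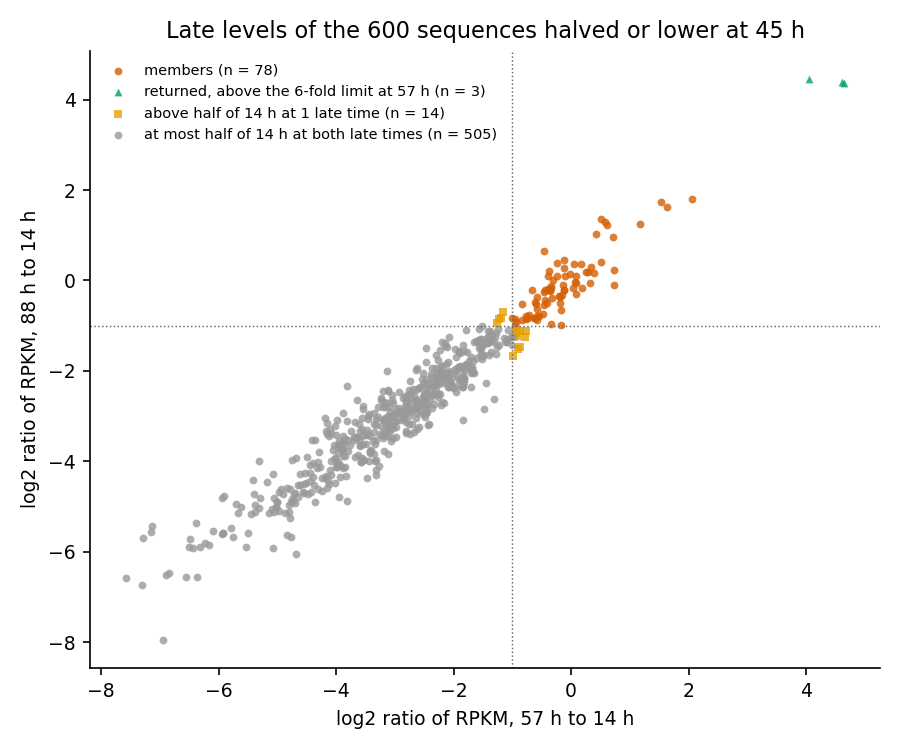
Log2 ratio of RPKM at 88 h to 14 h (vertical axis) against that at 57 h to 14 h (horizontal axis) for the 600 sequences at 45 h at most 0.5 times 14 h, with dotted lines at 0.5 times. The 78 members lie at the upper right end of a continuous cloud that holds 505 sequences below both lines (grey), and the 3 sequences past the 6-fold limit (triangles) lie beyond them. Squares mark the 14 sequences above 0.5 times at 1 late time.

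The 45 h limit cut through a well-filled range, while few sequences that met the rest of the rule lay near the other limits. The member nearest to the 45 h limit had a ratio of 0.495 and the nearest sequence outside, otherwise within the rule, one of 0.502. Within 10% of that limit lay 32 members and 82 sequences just outside. Within 10% of the 57 h limit lay 4 members and 0 sequences that failed this limit alone. Within 10% of the 88 h limit these were 6 and 3. Sequences that failed both late limits are not in these counts, and some lay close to a limit. One had log2 ratios to 14 h of -1.003 at 57 h and -1.23 at 88 h. At 57 h the nearest member had 0.50001 times its 14 h level and the nearest sequence failing this limit alone 0.448. At 88 h these values were 0.501 and 0.464. At the 6-fold limit there was a wide gap, between 4.16-fold for the highest member and 16.5-fold for the next sequence. The mean count closest to the floor was 52 reads for a member and 47.75 for a sequence outside.

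Length and component size were not used in the choice. Counting each component once, by its best-covered sequence of the kind in question, the 48 members had a median length of 1171 bases, against 1523 bases for the 336 that stayed low and 1874 bases for 4986 components over the floor. Their median of the mean read count was 199, against 319 and 596. The 4986 components are each represented by their sequence with the most reads. In 14 of the 48 components the member was not that sequence, so part of both differences can come from the way of picking. Shorter sequences collect fewer reads at a given RPKM, and the part of read depth in the difference of length was not tested. Members that were the only sequence of their component numbered 23, or 47.9% of the 48 components, against 54.1% of the components over the floor. The median RPKM at 14 h of the 48 was 23.2, against 29.9 over all components, which is a smaller difference than that in reads.

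A single component with 34 sequences supplied 18 of the 78 members. Of its 34 sequences 32 were longer than 10000 bases, up to 14827 bases, and its level was low, with RPKM at 14 h between 0.40 and 1.59. Its 18 members had medians of 91, 35, 83.5 and 81 reads in time order. The 15 other sequences over the floor had 98, 52, 129 and 111 reads by median, and failed on the 45 h limit alone. Their log2 ratio of 45 h to 14 h was -0.85 by median and ran from -0.99 to -0.68, against -1.30 and -1.58 to -1.01 for the members. For none of the 34 did the counting interval lie wholly below 0.5 times, while for 33 it lay wholly below no change. The exception was the shortest, of 1283 bases, with 13 reads at 14 h and 4 at 45 h, and too few reads to enter. Every interval of a member overlapped that of every other sequence over the floor, so the limit splits this component within counting error.

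**Figure D4:**
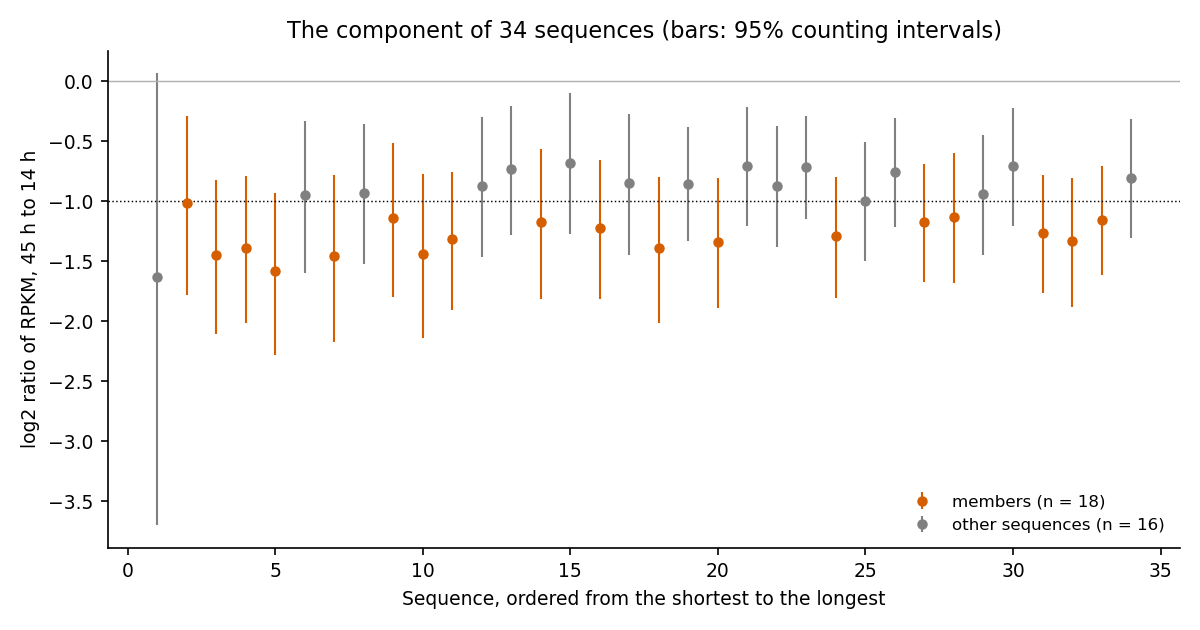
Log2 ratio of RPKM at 45 h to 14 h (vertical axis) with 95% counting intervals (bars) for the 34 sequences of the component with the most members, ordered from the shortest to the longest (horizontal axis). The 18 members (orange) lie below the dotted line at 0.5 times and the 15 others over the floor (grey) lie above it, with intervals that overlap throughout.

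Within this component the long sequences fell into 2 length classes with slightly different late levels. The 16 sequences of 13184 to 13550 bases had a median log2 ratio of 57 h to 14 h of -0.08, and the 16 of 14461 bases or more one of 0.39. For 88 h against 57 h the medians were 0.18 and -0.22. Sequences of 1 component are not independent units, so the difference between the classes has no spread to be read against.

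The fellow sequences of the members in the same 48 components were mostly lower at 45 h too. A fellow over the floor with the full dip and a return within the limits would itself be a member. Their lesser dip or missing return is therefore set by the choice. These components hold 190 sequences, of which 112 are not members, and 78 of the 112 were over the floor. Of those 78 fellows, 76 had a lower RPKM at 45 h than at 14 h and 2 had a higher one. The share of all sequences over the floor that were lower was not computed. Their median log2 difference was -0.04. Only 8 were at or below 0.5 times 14 h, and each of these 8 failed on a late level, without which it would be a member. Another 59 failed on the 45 h limit alone and 11 failed on both. Between 45 h and 14 h the median log2 difference was -0.80 for all fellows and -0.78 for the 63 outside the component of 34. Reads shared within a component bear on this likeness, and their part was not tested.

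All sequences were members in 5 of the 25 components with more than 1 sequence. In 14 of the 48 components the sequence with the most reads was not the member. When reads were summed over each component, 36 of the 48 kept to the rule, 12 did not and 2 further components did. All 12 were still lower at 45 h when summed, at 0.383 to 0.919 times 14 h with a median of 0.584, and 11 of them missed the 45 h limit.

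In a few components the member was higher at 57 h than at 45 h while at least 1 of its fellows was lower. The 4 with the widest gap in the log2 ratio of 57 h to 45 h were chosen after their values were seen. The widest, 5.72 on the log2 scale, was in a component of 4 sequences. Its member, of 4032 bases, had an RPKM of 25.7, 10.1, 21.7 and 33.6 at 14, 45, 57 and 88 h. A fellow of 1345 bases had 1258, 312, 13 and 13 reads in time order, or 74.9, 19.5, 0.80 and 0.80 RPKM, and did not return. The 2 other fellows, of 4980 and 2293 bases, had late levels far above their own 14 h level, at 37.0 and 54.7 RPKM for the first at 57 h and 88 h, against 7.81 at 14 h, and at 42.7 and 60.3 for the second, against 15.4. A dip with return, a continued decline and a late increase thus met in 1 component.

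The second gap, of 3.92, was in a component of 5 sequences. Its member, of 510 bases, had only 28 reads at 14 h and 11 at 45 h, then 113 at 57 h and 95 at 88 h. This gave the strongest return of any member, a log2 ratio of 3.33 for 57 h against 45 h. Its 4 fellows were low at the end, with 4.62 to 5.68 RPKM at 88 h, against 14.2 to 20.5 RPKM at 14 h.

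The remaining pair of components held a fellow that stayed low or that had no dip. In one, of 3 sequences, the member of 1471 bases had an RPKM of 17.6, 6.47, 13.4 and 15.4 at the 4 times. Its fellows of 2614 and 2077 bases were as high at 45 h as at 14 h, with 17.3 against 15.3 RPKM and 19.8 against 18.6 RPKM, and were lower at 57 h, at 8.39 and 10.3 RPKM. In the other, of 2 sequences, the member of 476 bases had 20.2, 8.49, 14.5 and 12 RPKM, while its fellow of 1606 bases had 51.2, 19.4, 10.7 and 8.97 RPKM. In each the member is the shorter sequence. How reads were divided among sequences of a component was not given in the sources used here.

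**Figure D5:**
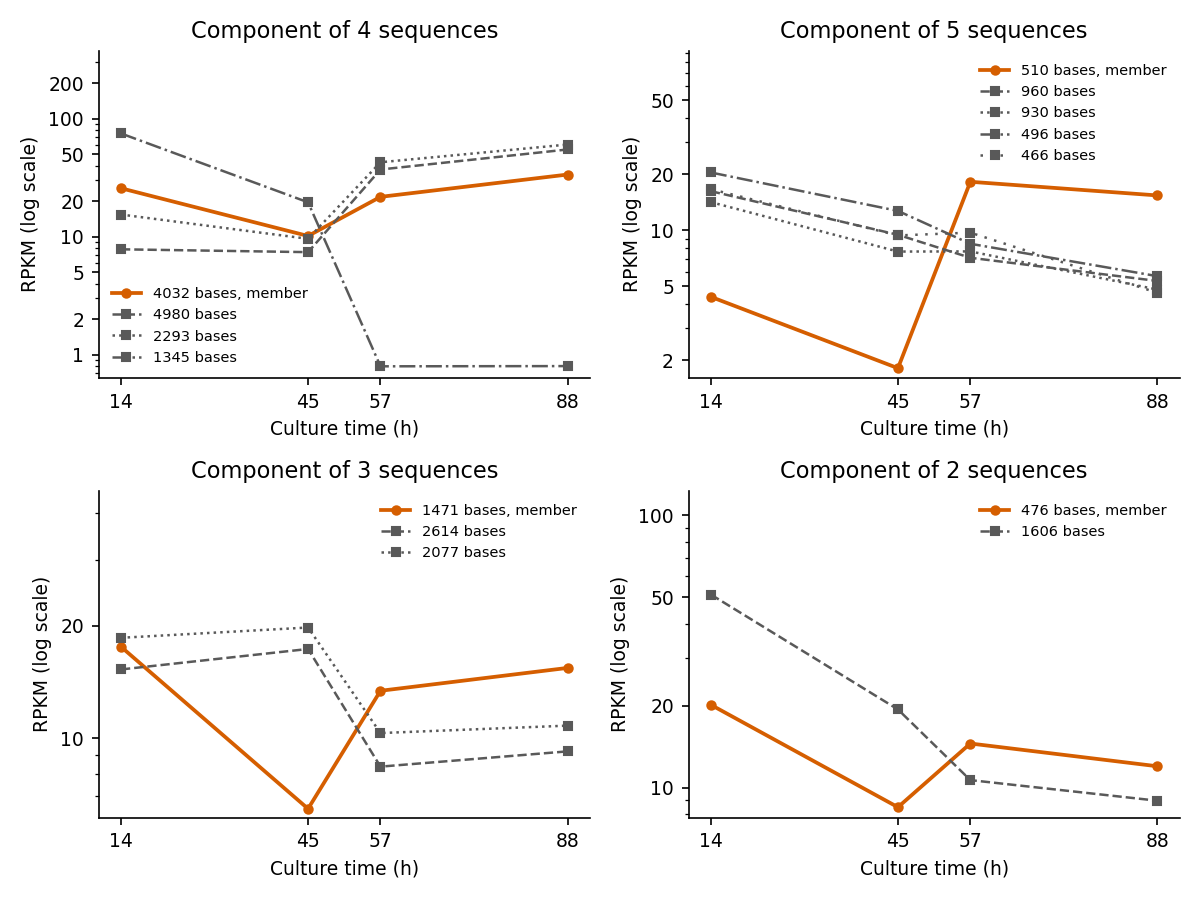
RPKM on a log scale (vertical axis) against culture time in hours for the sequences of the 4 components with the widest gap between a member (orange) and its fellow sequences over the floor (grey), 1 library per point. In the component of 4 sequences the member stands at 21.7 RPKM at 57 h and a fellow at 0.80, and in that of 5 sequences the member alone is higher at 57 h than at 14 h.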

How the data were processed

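Total RNA of UTEX2341 was sequenced at 4 culture times, 1 library each. Per the file headers, the authors deposited for each sequence its length, its read count, the total of the library and the RPKM. BWA is named, without a version, per the submitters' processing notes. Assembler and handling of shared reads were not given in the sources used here. RPKM values that the authors deposited differed from count, length and stated total by at most 3.82e-11.

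From these files the rule was applied to RPKM, and ratios were given as log2 ratios of RPKM without a pseudocount. Intervals of a ratio are exact conditional binomial (Clopper-Pearson) intervals at 95%; those of a level are exact Poisson limits. They treat reads as independent, so they may be too narrow. Members, lists and the naming rule were chosen with earlier results of these data known. That rule takes, among members averaging 100 reads or more, the 2 lowest ratios of 45 h to 14 h and then the 2 highest of 57 h to 45 h, 1 per component. Planned lists of lipid, photosynthesis and other genes could not be scored, as 0 identifiers carry a name. The rule of choice and the interval were also run on simulated data, as a check of the code only. No result of that check is given here. It is not used to judge how counting error moves sequences across a limit in these libraries. With 1 library per time no test was made. TMM factors came from edgeR 4.0.16 in R 4.3.3. All else ran in Python 3.11.15 (scipy 1.17.1, pandas 2.3.3, numpy 2.4.6), with figures by matplotlib 3.10.9. Alternatives were other scalings, floors, limits, a pseudocount and units of counting.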

Additional observations from a re-analysis of the deposited data

How the results depend on the processing

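The number of members changed with the scaling, the read floor and the limits. It was 138 under TMM and 138 under median-of-ratios scaling, 77 of the 78 among them each time, 221 with no floor on reads and 158 with a floor of 10. It was 23 with a 45 h limit of 0.4 times, 14 with the whole counting interval below 0.5 times and 18 with both late levels at least that of 14 h. Keeping only members that had the most reads of their component left 34, and summed reads gave 38 components. With the members held as chosen, the median log2 ratio of 57 h to 14 h was 0.46 under TMM and 0.46 under median-of-ratios scaling, and that of 88 h to 14 h 0.57 and 0.58, each the reverse of the reported sign. For 57 h against 45 h both gave 1.71. For 88 h against 57 h the sign turned, to 0.0554 under TMM, 0.0587 under median-of-ratios scaling, 0.00785 with the sum of counts, 0.014 with 1 member per component and 0.014 without the component of 34 sequences, the last setting added after seeing the data. For the 4 named sequences 24 of 32 alternative ratios stayed within their counting interval. The 8 others were those of 57 h to 45 h under TMM and median-of-ratios scaling, all higher than reported. Leaving out a library was not possible, as it would remove a time. No paired analysis was possible because every time is a single library. Reads on the members were fewest at 45 h, where 27 had under 50 reads, and the choice sets that low point. The 45 h library itself was not shallow, with a median of 463 reads over all sequences above the floor. That median was 493, 257 and 255 at 14, 57 and 88 h.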
